A study of Mus musculus with 7 samples.

Results

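RNA of mouse liver cells, labelled as liver endothelial progenitors, was hybridised to short-oligonucleotide arrays with 1 colour. Of the 7 arrays of the study, 5 were compared here in 2 sets. The unnumbered set holds the 2 sorted arrays whose titles carry no sample number, 1 of Sca1+ and 1 of Sca1- cells. The numbered set holds the 3 sorted arrays titled as sample 2 or 3, namely Sca1+ numbered 2, Sca1- numbered 2 and Sca1- numbered 3. Sca1 is a membrane protein by which stem and progenitor cells are often sorted. All 5 arrays hold sorted liver cells of Mus musculus, and no treatment is named for any of them. Strain, age and the time of each sort are not given in the sources used here. The titles name fetal liver for the feeder layer alone. The labels name no deposit or hybridisation batch and do not say whether the samples came from separate animals or cultures, so the p-values reflect only how far these arrays spread, which may be technical. The other 2 arrays, an unsorted progenitor sample in the same table and a feeder cell layer from fetal liver in a separate table, belong to neither set. Their values stand beside the others as levels only.

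Fetal liver is the main site of blood formation before birth, and its blood-forming cells lie among stromal cells that include stellate cells, portal fibroblasts and the mesothelium of the capsule. Stromal cells secrete fibrillar collagens, build basement membranes, contract through smooth muscle proteins and release growth factors and chemokines that maintain blood progenitors. Collagen chains are modified and folded in the endoplasmic reticulum, secreted, trimmed by proteases and cross-linked by lysyl oxidases. CD45, the product of Ptprc, is carried by leukocytes and not by stromal or endothelial cells.

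The stromal markers Col1a1, Sparc and Dcn were far higher on all numbered arrays than on both unnumbered ones, where the probe sets used, those of highest mean signal, read under 100. Signals are given after scaling, which set the trimmed mean of every array to 500. Differences are numbered minus unnumbered on the log2 scale, with the fraction as a term and values under 64 set to 64. The highest bacterial control signal, taken as background, was 55.3 on the unnumbered Sca1+ array and 170 on the unnumbered Sca1- array. Signals below it carry no size, so a difference against them depends on the floor. Col1a1, which encodes a chain of type I collagen, had signals of 79.5 on Sca1+ unnumbered 1 and 32.6 on Sca1- unnumbered 1, against 20592 on Sca1+ numbered 2, 8329 on Sca1- numbered 2 and 8796 on Sca1- numbered 3. Its difference was 7.47 ± 0.29 (SE; 2 and 3 arrays; limma, adjusted p = 0.00102), which is 178-fold after the floor for this probe set. That fold depends on the floor, as the reading on Sca1- unnumbered 1 lay below background. A second probe set of Col1a1, above background on both unnumbered arrays, had 304 and 580 against 7977, 4877 and 4000. It gave a difference of 3.69, and the mean of both gave 5.58, so the size depends on the probe set. The unsorted array, at 13201, and the feeder array, at 16246, lay with the numbered arrays. Sparc, a collagen-binding matricellular glycoprotein, had 29.6 and 77.6 on the unnumbered Sca1+ and Sca1- arrays and 18543, 7914 and 6871 on the numbered arrays in the order above. Its difference was 7.26 ± 0.39 (limma, adjusted p = 0.00126), and its second probe set, at 202 and 127 against 10516, 4027 and 3702, gave 5.26. Within Sca1+ and within Sca1- the differences were 8.02 and 7.06 for Col1a1 and 8.18 and 6.57 for Sparc.

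Dcn, the collagen-binding proteoglycan decorin, followed the same order at lower signals. It had 82.9 and 87.4 on the unnumbered arrays and 3160, 923 and 768 on the numbered ones, with 4090 on the unsorted and 3246 on the feeder array. Its difference was 4.12 ± 0.47 (limma, adjusted p = 0.00507). Ptprc moved the other way by a smaller amount. Its signals were 10520 and 13684 on the unnumbered arrays and 4783, 7595 and 6517 on the numbered ones, so the sets did not overlap and no array lacked it. It fell by 1.04 ± 0.21 (limma, adjusted p = 0.0231), and its signal was 5403 on the unsorted and 3310 on the feeder array. The call of Ptprc was lost without Sca1- unnumbered 1 (adjusted p = 0.0626), without Sca1- numbered 2 (0.0922), without Sca1- numbered 3 (0.157) and with quantile normalization (0.0694), and its adjusted p ranged from 0.0193 to 0.157 over the alternatives. The call of Dcn was lost with no filter (adjusted p = 0.0982) and with the floor doubled (0.0551), and that of Sparc with no filter (0.0550), which were the largest adjusted p over the alternatives of either gene (0.0982 and 0.0550). RNA from whole samples cannot tell fewer cells of a type from less RNA per cell.

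**Figure D1:**
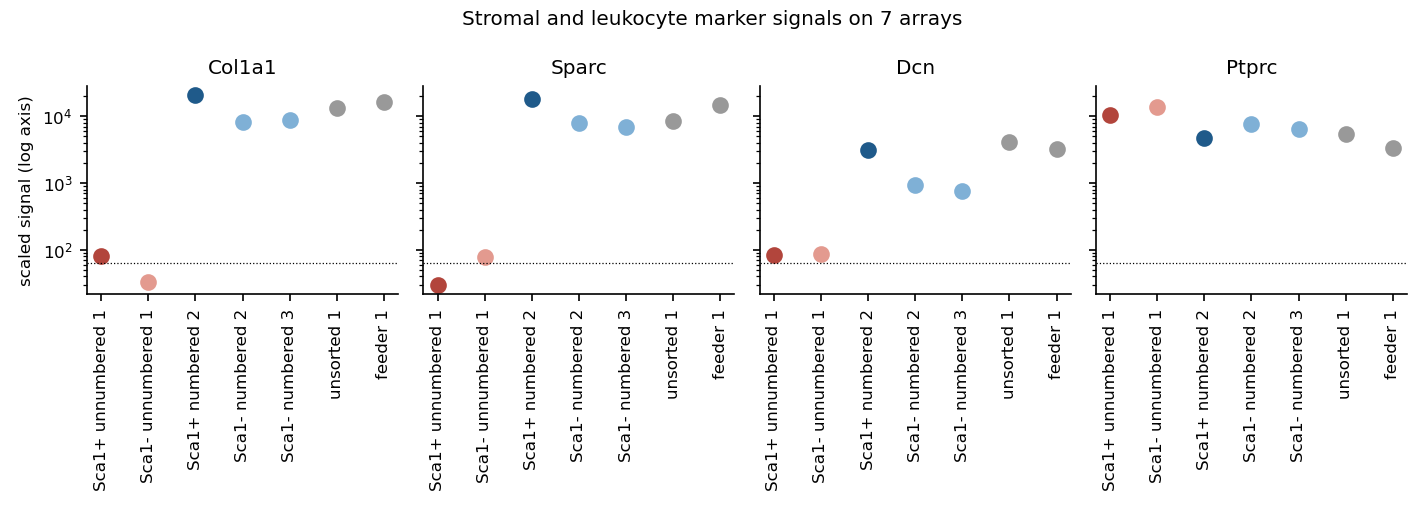
Scaled signal (log axis) of Col1a1, Sparc, Dcn and Ptprc on each of the 7 arrays, 1 point per array, with unnumbered arrays in red, numbered arrays in blue, the unsorted and feeder arrays in grey and the floor of 64 as a dotted line. With the probe set used, the 3 stromal genes lie below 100 on both unnumbered arrays and at 768 or above on the others, while Ptprc is highest on the unnumbered arrays, at 10520 and 13684.

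Across all genes, 1002 were higher (11.7% of 8593 tested) and 646 lower (7.52%) on the numbered arrays at an adjusted p under 0.05 with limma, and the median difference of all genes was 0.10. Every numbered array lay above every unnumbered one for 2258 genes (26.3%) and below for 1671 (19.4%). Changes of at least 4-fold numbered 324 among the genes called higher and 123 among those called lower. Higher calls made up 60.8% of all calls, but 49.1% with quantile normalization (887 higher and 918 lower) and 41.8% with median scaling (538 and 749), which moved the median of all genes down by 0.17 and 0.20. The counts were 407 and 316 without Sca1- unnumbered 1, 799 and 428 without Sca1- numbered 2 and 551 and 281 without Sca1- numbered 3. They were 1793 and 1206 without Sca1+ unnumbered 1 and 1782 and 1211 without Sca1+ numbered 2, either of which leaves the Sca1- arrays alone to give the difference.

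The 15 highest non-overlapping genes by size began with Col1a1 and Sparc. Ccn2, which encodes connective tissue growth factor, had 105 and 4.40 on the unnumbered arrays and 3326, 2198 and 2326 on the numbered ones. Its difference was 5.07 ± 0.24 (limma, adjusted p = 0.00126). Tgfb1, which encodes transforming growth factor beta, rose from 17.6 and 77.4 to 2113, 2472 and 2369, a difference of 5.0 ± 0.24, and was as high on the unsorted array (4086) and the feeder array (3446). The numbered arrays lay close together for Ccn2 and Tgfb1 and far above both unnumbered ones. The rest of the 15 were Col3a1 (4.66), the fibulin gene Fbln2 (4.46), the AP-1 subunit gene Junb (4.45), the actin-binding caldesmon gene Cald1 (4.43), the splicing-associated Srrm2 (4.33), the lysyl oxidase gene Lox (4.32), the transcription factor gene Sox4 (4.29), the aminopeptidase N gene Anpep (4.28), the disulfide isomerase gene Pdia3 (4.25), the fibronectin receptor chain gene Itga5 (4.17) and the actin-bundling fascin gene Fscn1 (4.16). Sox4 had 5 probe sets above the minimum, of which the other 4 gave 2.56, 2.19, 0.12 and -0.68, and the other 2 of Fscn1 gave 1.54 and 0.95.

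Among the 15 lowest non-overlapping genes the largest fall was that of Ceacam10. Ceacam10, of the carcinoembryonic antigen family, had 1200 and 24050 on the unnumbered arrays and 19.4, 887 and 787 on the numbered ones. It fell by 4.58 ± 0.26 (limma, adjusted p = 0.00126). Mmp9, a gelatinase stored in neutrophil granules, had 7932 and 40372 against 861, 3140 and 3419 and fell by 3.44 ± 0.22. In both sets the Sca1- arrays had the higher signal of Ceacam10 and Mmp9, and the sets did not overlap. Fpr2, a formyl peptide receptor of phagocytes, fell by 2.83, and the sialic acid-binding lectin gene Cd33 by 2.95. The other genes of the 15 lowest were the myeloid receptor gene Trem3 (-3.44), the inhibitory receptor gene Pilra (-2.85), Slc16a6 (-3.80), Rbm43 (-3.70), Ogfrl1 (-3.34), Rflnb (-3.28), Plbd1 (-2.99), the interleukin receptor chain gene Il13ra1 (-2.90), Ifitm6 (-2.90), Preb (-2.87) and the water channel gene Aqp9 (-2.86). Other probe sets disagreed with the lead one for Il13ra1 (0.60, -0.08 and -0.15) and Ogfrl1 (0.19 and -1.52), and the second of Preb gave -1.17.

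Genes of the 8 stromal lists were higher on the numbered arrays far more often than genes at large. Of 177 genes listed, 169 were measured and 125 passed the filter. Of those 125, 74 rose (59.2%, against 11.7% of all genes tested) and 0 fell, and the median difference was 1.79 against 0.10 over all genes. The filter asks for a signal above 100 on 2 sorted arrays, so a member that was low on the unnumbered arrays entered through the numbered ones, and these shares are a description of the members that passed. Of all 169 measured members, 70 and 86 exceeded a signal of 100 on the unnumbered Sca1+ and Sca1- arrays, 132, 122 and 120 on the numbered arrays, 147 on the unsorted and 149 on the feeder array. Over all genes the same count was 7581 and 8227 on the unnumbered arrays and 8198, 7878 and 7797 on the numbered ones. This count did not separate the sets. On Sca1- unnumbered 1 the highest background control, at 170, lay above 100. The counts on that array can thus include readings within background and are not counts of detected genes. The summed signal of the stromal lists was 49197 and 85096 on the unnumbered arrays, 313180, 150230 and 144084 on the numbered ones, 254409 on the unsorted and 360135 on the feeder array. The count of 74 was 20 with the floor doubled, 3 without a filter, 44 without the fraction as a term and 24 with a 2-fold minimum, and between 56 and 79 when single arrays were left out. Of the 74 genes that rose, 14 were at the floor on both unnumbered arrays. The 44 measured members that were not tested, among them the fibroblast genes Fmod and Ogn, the transcription factor gene Twist1, the smooth muscle gene Myh11 and the growth factor gene Hgf, did not reach 100 on 2 sorted arrays.

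Collagen genes had the highest median of the 27 lists, at 3.01. Of 14 tested members 10 were higher (71.4%, against 11.7% of all genes) and 0 lower. In this and each stromal list below, members low on the unnumbered arrays entered the test through the numbered ones. Col3a1, the type III collagen gene, had 544 and 418 on the unnumbered arrays and 22836, 8005 and 6501 on the numbered ones. Col1a2, which encodes the second chain of type I collagen, had 785 and 1824 against 25683, 12623 and 11082, a difference of 3.70 ± 0.51 (limma, adjusted p = 0.00791). On the unnumbered arrays Col1a2, Col3a1 and the second probe set of Col1a1 lay above the floor and above the highest background control, so some collagen signal was present there. Differences past the test were also seen for Col5a2 (3.88), Col6a1 (3.38), Col6a2 (3.13), Col5a1 (3.12), Col11a1 (2.39) and Col16a1 (1.63). Not every collagen gene rose, as Col8a1 (0.99), Col14a1 (0.63), Col5a3 (-0.58) and Col12a1 (-0.95) did not pass. Col12a1 had 90.9 and 280 on the unnumbered arrays and 64.3, 103 and 127.9 on the numbered ones, so its sets overlapped.

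Genes that modify, chaperone and cross-link collagen rose in 10 of 14 tested members (71.4%, against 11.7% of all genes). Their median was 1.37 and 0 were lower. Lox, which cross-links collagen and elastin, had 66.7 and 19.0 on the unnumbered arrays and 1822, 984 and 1034 on the numbered ones. Loxl1, a relative of Lox, differed by 4.08 ± 0.50, Bmp1, the protease that trims procollagen ends, by 3.35 ± 0.36, and Serpinh1, the collagen chaperone, by 3.23 ± 0.48. Plod2, which hydroxylates collagen lysines, had 157 and 117 against 1216, 742 and 774. For the prolyl hydroxylase gene P4ha1 the sets overlapped, with 1418 and 427 against 2182, 1598 and 1313, and its difference was 1.27 ± 0.32 (limma, adjusted p = 0.0405). Here Sca1- numbered 3 lay below the unnumbered Sca1+ array.

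With a median of 2.11 and 0 lower, matrix glycoproteins and proteoglycans rose in 12 of 20 tested members (60%, against 11.7%). Besides Sparc and Dcn these included Fstl1 (4.13 ± 0.38), the biglycan gene Bgn (3.61 ± 0.54), the lumican gene Lum (3.6 ± 0.52), Postn (2.74 ± 0.58), Mfap2 (2.71 ± 0.47) and the thrombospondin gene Thbs1 (1.34 ± 0.22). Fn1, the fibronectin gene, differed between its probe sets. The one used had 8376 and 2109 on the unnumbered arrays and 12382, 6208 and 6097 on the numbered ones, so the sets overlapped although the fit with the fraction as a term called it (1.12 ± 0.28; limma, adjusted p = 0.0386). Its other probe set did not overlap, with 74.7 and 116 against 840, 576 and 748, a difference of 2.92. Thbs2 (-0.34) and Vcan (0.80), the versican gene, did not pass and their fractions went opposite ways at the probe set used, while the other probe set of Thbs2 gave 1.25. Vcan had 1319 on Sca1+ unnumbered 1 and 197 on Sca1- unnumbered 1, against 596, 964 and 933 on the numbered arrays.

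Basement membrane genes rose in 7 of 13 tested members (53.8%, against 11.7% of all genes), with a median of 1.92 and 0 lower. The type IV collagen genes Col4a1 (3.77 ± 0.42), Col4a2 (2.97 ± 0.56) and Col4a5 (2.29 ± 0.39), the nidogen gene Nid1 (3.17 ± 0.34), Col15a1 (2.64 ± 0.33) and the laminin genes Lamc1 (2.72 ± 0.29) and Lamb1 (1.92 ± 0.48) were those that passed. Col4a1 had 259 and 330 on the unnumbered arrays and 7267, 2635 and 2619 on the numbered ones, with 6476 on the unsorted and 8801 on the feeder array. The perlecan gene Hspg2 (0.96 ± 0.49) did not pass, and its signals of 222 and 526 overlapped with 989, 478 and 629. Its other probe set had 10.4 and 24.2 against 315, 192 and 341, with no overlap and a difference of 2.13.

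Contractile and smooth muscle genes rose in 9 of 16 tested members (56.2%, against 11.7%), with a median of 1.75 and 0 lower. Cald1 had 184 and 148 on the unnumbered arrays and 5526, 2500 and 2507 on the numbered ones. Tagln, which encodes the actin-binding protein transgelin, had 174 and 234 against 4145, 2167 and 1931, a difference of 3.75 ± 0.37 (limma, adjusted p = 0.00391). The desmin gene Des (2.24), the tropomyosin genes Tpm1 (2.71) and Tpm2 (2.78), the calponin gene Cnn1 (1.70), Csrp1 (3.62), Csrp2 (1.77) and Myl9 (2.49) passed as well. Acta2, the smooth muscle actin gene that marks activated stellate cells and myofibroblasts, did not follow them. Its signals were 2270 and 10123 on the unnumbered arrays, 10753, 6456 and 5034 on the numbered ones, 6586 on the unsorted and 12642 on the feeder array, and its difference was 0.49 ± 0.65. The alpha-actinin gene Actn1 (-0.10 ± 0.45) and Cnn2 (-1.24 ± 0.35; limma, adjusted p = 0.0547) did not pass either, and at the probe sets used Acta2, Actn1 and Cnn2 were higher on Sca1- unnumbered 1 than on either numbered Sca1- array. The other probe sets of Actn1 read the reverse, with 264 on Sca1- unnumbered 1 against 843 and 853 for one and 444 against 702 and 658 for the other, and gave differences of 2.43 and 1.30. Among the genes that passed, other probe sets above the minimum gave 0.14 for Des, 3.76 and 0.99 for Tpm1 and 2.35, 0.50 and -0.05 for Tpm2. Those of Cald1 gave 2.88 and 2.50 and that of Csrp1 2.01.

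Receptors, adhesion molecules and transcription factors of stromal cells had the lowest share of calls of the 8 stromal lists. Of 12 tested members 4 rose (33.3%, against 11.7% of all genes), with a median of 1.66 and 0 lower. The other 10 of the 22 measured were not tested. The platelet-derived growth factor receptor genes Pdgfrb and Pdgfra, defining receptors of fibroblasts and pericytes, were both higher. Pdgfrb had 42.4 and 27.2 on the unnumbered arrays and 1224, 323 and 326 on the numbered ones, a difference of 3.16 ± 0.48 (limma, adjusted p = 0.0106). Pdgfra had 4.0 and 34.4 against 788, 210 and 149 (2.39 ± 0.55). The cadherin genes Cdh11 (2.74 ± 0.56) and Cdh2 (2.55 ± 0.37) rose too, whereas Ncam1 (2.49 ± 0.71; limma, adjusted p = 0.0550), Fap (-0.74) and Zeb1 (-0.80) did not pass. Zeb1, a transcription factor of mesenchymal cells, had 302 and 1095 on the unnumbered arrays and 497, 314 and 259 on the numbered ones.

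Proteases of the matrix and their inhibitors rose in 9 of 14 tested members (64.3%, against 11.7%), with a median of 1.97 and 0 lower. Mmp14, a membrane-bound metalloprotease, had 455 and 113 on the unnumbered arrays and 3974, 1607 and 1338 on the numbered ones (3.45 ± 0.26; limma, adjusted p = 0.00208). Mmp2, the gelatinase of stromal cells, had 156 and 225 against 3159, 900 and 980 (3.04 ± 0.51). The difference of Mmp2 was thus opposite in sign to that of Mmp9, which had 3288 on the feeder array. Which cells gave either signal was not tested. The inhibitor genes Timp1 (2.43), Timp3 (2.52) and Serpinf1 (3.68) and the plasminogen activator genes Plat (2.20) and Plau (1.36) were also higher. Timp2 did not pass (-0.37 ± 0.51), with 2090 and 9863 on the unnumbered arrays and 4118, 3943 and 3631 on the numbered ones, and its 4 probe sets gave 1.33, 1.13, -0.37 and -0.48.

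Secreted factors of stromal cells rose in 13 of 22 tested members (59.1%, against 11.7%), with a median of 1.78 and 0 lower. The other 13 of the 35 measured were not tested. Cxcl12, the chemokine that retains blood progenitors, had 198 and 18.0 on the unnumbered arrays and 2420, 907 and 1189 on the numbered ones (3.85 ± 0.28; limma, adjusted p = 0.002). The matricellular genes Ccn2, Ccn1 (4.08 ± 0.32) and Ccn4 (2.68 ± 0.45), the growth factor genes Vegfa (2.58 ± 0.35), Pdgfc (1.78 ± 0.38) and Igf1 (1.13 ± 0.21), the receptor ligand gene Gas6 (2.54 ± 0.43) and Igfbp7 (3.6 ± 0.54) were higher. Igf1, which encodes insulin-like growth factor 1, had 2707 and 1542 against 5738, 3333 and 3592. Kitl, the stem cell factor gene, did not pass (1.30), and neither did the activin subunit gene Inhba, at 37.6 and 991 on the unnumbered arrays and 332, 140 and 219 on the numbered ones.

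**Figure D2:**
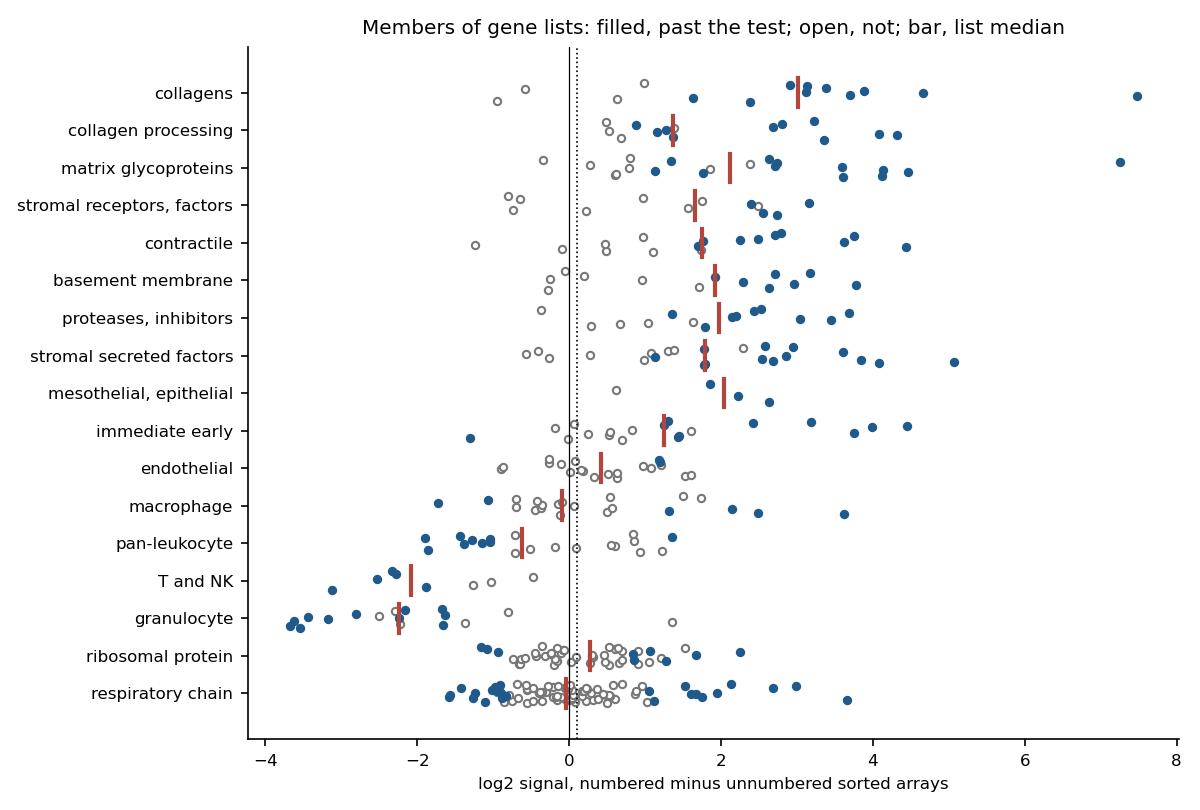
Log2 difference, numbered minus unnumbered sorted arrays, of each tested member of 17 gene lists (1 point per gene, filled where past the test), with the list median as a red bar, 0 as a solid line and the median of all genes (0.10) as a dotted line. Medians of the 8 stromal lists lie between 1.37 and 3.01 and those of T and NK and granulocyte genes at -2.08 and -2.24.

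The sets differed in the same direction in both fractions for most stromal genes, and by more in Sca1+. Over the 125 tested, the median difference was 2.77 between the Sca1+ arrays and 1.53 between the Sca1- arrays, against 0.05 and 0.14 over all genes. The difference was above 0 in both fractions for 102 of the 125 (81.6%, against 37.1% of all genes) and larger in Sca1+ for 105 (84.0%, against 50%). On the numbered arrays the Sca1+ signal was above both Sca1- signals for 109 of the 125 (87.2%, against 44.7%). Collagen genes, for example, had a median difference of 4.40 in Sca1+ and 1.93 in Sca1-, and stromal receptor and transcription factor genes 2.93 and 0.66. With limma, the set effect differed between the fractions for 0% of genes (0 of 8593) at an adjusted p under 0.05, the smallest adjusted p was 0.0981, and 2698 genes had an unadjusted p under 0.05. This test rests on 1 residual degree of freedom, between Sca1- numbered 2 and 3, and it called 1888 genes with a floor of 16, 1103 with the floor doubled and 1834 with no filter.

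**Figure D3:**
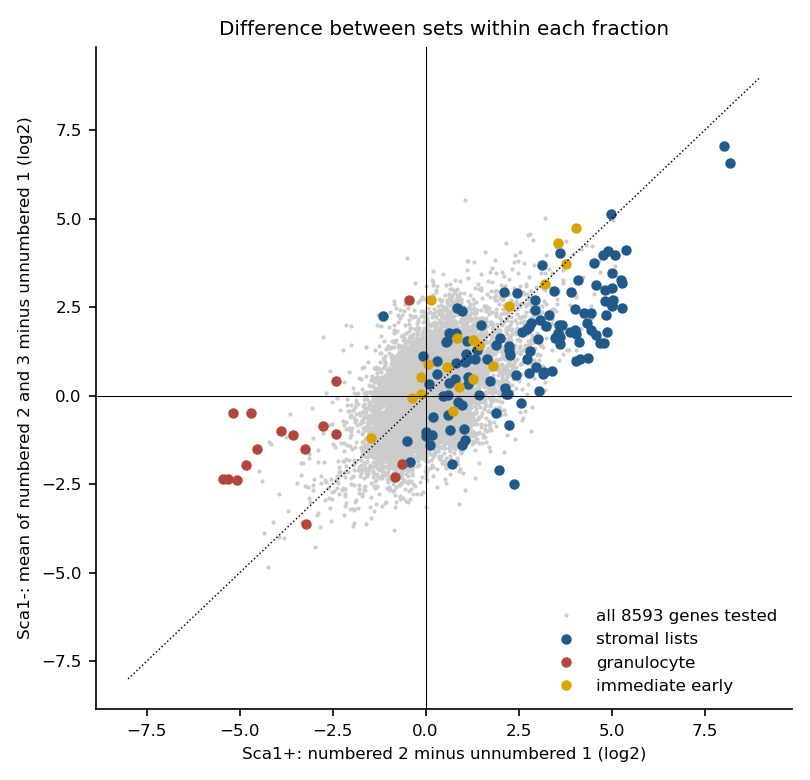
Difference between the sets within Sca1+ (horizontal, 1 array minus 1 array) and within Sca1- (vertical, mean of 2 arrays minus 1 array), in log2 units, for all 8593 genes tested (grey), stromal lists (blue), granulocyte genes (red) and immediate early genes (yellow); the dotted line marks equal differences. Most stromal genes lie below that line at positive values, 105 of 125 being larger in Sca1+, and 11 of 17 granulocyte genes were called lower.

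Markers of other non-blood cells were also read. Of 11 mesothelial and epithelial genes measured, 4 were tested and 3 rose (75%, against 11.7% of all genes), with a median of 2.04 and 0 lower. Without a filter the median of the 11 was 0.36. The keratin gene Krt18 had 75.3 and 56.0 on the unnumbered arrays and 492, 422 and 342 on the numbered ones (2.63 ± 0.32; limma, adjusted p = 0.00552), Krt8 differed by 2.22 and Wt1, a mesothelial transcription factor, by 1.86. The summed signal of this list was 445 to 579 on the unnumbered and 1281 to 1902 on the numbered arrays. Hepatoblast genes, of which 5 of 19 measured were tested, included 2 that rose (40%, against 11.7%) and 0 that fell. Those that rose were Dlk1 (2.62 ± 0.49) and Afp (2.16 ± 0.41). The other 3 tested members had differences below 0 that did not pass. The list median was -0.095, so the list did not rise as a group. Alb, the albumin gene, had 97.1 and 174 on the unnumbered arrays and 317, 29.8 and 40.9 on the numbered ones and did not pass. The part of these cell types in the stromal difference was not tested.

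Endothelial genes, which the sample label names, separated the sets little. Of 32 measured, 20 were tested, 2 rose (10%, against 11.7% of all genes), 0 fell and the median was 0.42, made up of 0.94 in Sca1+ and -0.22 in Sca1-. Stab1, a scavenger receptor of sinusoidal endothelium and macrophages, rose by 1.20 ± 0.29, and the thrombomodulin gene Thbd by 1.18 ± 0.31 (limma, adjusted p = 0.0370 and 0.0430). Kdr, a receptor of vascular endothelial growth factor, had 191 and 141 on the unnumbered arrays and 432, 254 and 316 on the numbered ones, but did not pass (1.08 ± 0.30; limma, adjusted p = 0.0545). Signals above 100 were found for 10 and 16 of the 32 genes on the unnumbered arrays, 24, 14 and 13 on the numbered ones, 25 on the unsorted and 14 on the feeder array. Pecam1 and Cdh5, which mark endothelium, Pecam1 not exclusively, and were taken as a check of the label, were low on most arrays. Pecam1, the CD31 gene, had 15 and 23.2 on the unnumbered arrays and 206, 117 and 25.9 on the numbered ones. Cdh5, the VE-cadherin gene, had 9.41 and 115 against 237, 48.0 and 7.01. The highest signal among 27 bacterial control probe sets, taken as background, was 55.3 and 170 on the unnumbered and 82.1, 88.3 and 50.9 on the numbered arrays.

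Pan-leukocyte genes were abundant on every array and fell in 8 of 20 tested members (40%, against 7.52% of all genes), with 1 higher and a median of -0.62. The small GTPase gene Rac2 had 10012 and 31000 on the unnumbered arrays and 3309, 7743 and 6579 on the numbered ones, a fall of 1.90 ± 0.23 (limma, adjusted p = 0.00592). Cd52 fell by 1.86, the integrin chain gene Itgb2 by 1.39, the signalling adapter gene Tyrobp by 1.44 and the phosphatase gene Ptpn6 by 1.27. The member that rose was Spi1, which encodes the myeloid transcription factor PU.1, at 933 and 2046 against 3172, 4100 and 4408 (1.36 ± 0.25). The summed signal of the list was 140181 and 288634 on the unnumbered and 86640 to 129149 on the numbered arrays. The count of members that fell was 2 without Sca1- unnumbered 1, 5 without Sca1- numbered 2, 3 without Sca1- numbered 3 and 0 without the fraction as a term. The list median was -0.19 with quantile normalization, -0.30 with the mean of probe sets and -0.81 with median scaling.

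Granulocyte genes fell in 11 of 17 tested members (64.7%, against 7.52%), 0 rose and the median was -2.24. Camp, an antimicrobial peptide of neutrophil secondary granules, had 10028 on Sca1+ unnumbered 1 and 85114 on Sca1- unnumbered 1, against 296 on Sca1+ numbered 2 and 17412 and 15114 on the Sca1- numbered arrays. Lcn2 (-3.62 ± 0.62), Chil3 (-3.67 ± 0.65), Ltf (-3.18 ± 0.60) and Mmp8 (-2.24 ± 0.40) fell in the same pattern. These genes were lower in each fraction of the numbered set, yet the numbered Sca1- arrays exceeded the unnumbered Sca1+ array. Only 1 of the 17 had all numbered arrays below all unnumbered ones, which held for 19.4% of all genes. With the fraction left out of the fit 0 were called. The summed signal of the list was 153221 and 668971 on the unnumbered arrays, 11261 on Sca1+ numbered 2 and 245840 and 220165 on the Sca1- numbered arrays. Markers of T and NK cells fell in 5 of 8 tested members (62.5%, against 7.52%), with 0 higher and a median of -2.08. All numbered arrays lay below all unnumbered ones for 7 of the 8. The T cell receptor complex gene Cd3d had 473 and 5896 against 29.0, 622 and 575, and Gzmb (-2.53), Nkg7 (-2.33), Klrd1 (-2.28) and Cd3g (-1.88) fell as well. The summed signal of that list was 4776 to 10508 on the unnumbered and 2309 to 2836 on the numbered arrays.

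Of 21 macrophage genes tested, 4 were higher (19.0%, against 11.7% of all genes) and 2 lower (9.52%, against 7.52%), with a median of -0.10, which turned to 0.08 with quantile normalization. The complement genes C1qa (2.48 ± 0.29) and C1qc (1.32 ± 0.25) and the Kupffer cell gene Cd5l (2.15 ± 0.28) rose. Fcgr3 (-1.72 ± 0.28) and the lysozyme gene Lyz2 (-1.07 ± 0.25) fell. Aif1 was called higher (3.62 ± 0.91), but its signals of 1851 and 11.6 on the unnumbered arrays and 3888, 3010 and 2909 on the numbered ones show that Sca1- unnumbered 1 alone was low. C1qa had 2313 and 744 against 8446, 5835 and 5649, with no overlap. The summed macrophage signal was 276099 to 284028 on the unnumbered and 188256 to 218886 on the numbered arrays. The part of the blood cell lists in the stromal difference was not tested.

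Immediate early genes, which are switched on within minutes of a stimulus or of tissue handling, rose in 9 of 19 tested members (47.4%, against 11.7% of all genes), with 1 lower and a median of 1.25. Junb had 305 and 150 on the unnumbered arrays and 5076, 4023 and 3999 on the numbered ones. Jun, which also encodes an AP-1 subunit, had 387 and 163 against 4571, 3160 and 3316 (3.99 ± 0.26; limma, adjusted p = 0.00174). Fosb (3.75), Nr4a1 (3.19), Myc (2.42) and Dusp1 (1.44) rose too, and these differences were of similar size in Sca1+ and Sca1-, at 3.56 and 4.31 for Jun and 3.78 and 3.73 for Fosb. The member that fell, named after its value was seen, was the heat shock co-chaperone gene Dnajb1 (-1.30 ± 0.24). On the unsorted and feeder arrays Jun was at 2068 and 3832, nearer to the numbered arrays.

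Lists with housekeeping roles held called genes in both directions. Of 47 ribosomal protein genes tested, 6 rose (12.8%, against 11.7% of all genes) and 3 fell (6.38%, against 7.52%), with Rps24 at 2.24 ± 0.21 and Rps7 at -1.16 ± 0.21. Of 86 respiratory chain genes, 11 rose (12.8%) and 15 fell (17.4%, against 7.52%), from Atp5l at 3.66 ± 0.27 to Cox7a2l at -1.58 ± 0.22. Both lists thus held differences of opposite sign that passed the test. The shares over all genes were 11.7% higher and 7.52% lower, and the remaining lists are given in that order. Genes of G2 and M phase had 4 (14.8%) and 2 (7.41%) of 27, and S phase 2 (8.7%) and 0 of 23. Glycolysis and hypoxia had 1 and 1 of 15 (6.67% each), and interferon response 1 (5%) and 3 (15%) of 20. Blood progenitors had 1 (8.33%) and 0 of 12, and erythroid cells 1 and 1 of 6 (16.7% each). Megakaryocytes had 0 and 1 (12.5%) of 8, and B cells and class II antigen presentation 0 and 2 (22.2%) of 9. Mast cells and eosinophils had 0 and 1 (25%) of 4. Among these lists the histamine-forming enzyme gene Hdc had 556 and 4500 against 4.0, 534 and 587 (-3.06 ± 0.25), and the mitotic kinase gene Plk1 158 and 314 against 394, 825 and 787 (1.34 ± 0.26).

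The control transcripts differed between the sets along their length. For Actb, the signal at the 3' end divided by that at the 5' end, a ratio that is higher in degraded or partly copied RNA, was 6.83 on Sca1+ unnumbered 1 and 13.5 on Sca1- unnumbered 1, against 2.37, 1.87 and 1.91 on the numbered arrays. It was 1.01 on the unsorted and 1.03 on the feeder array. For Gapdh the ratio was 4.86 and 13.2 on the unnumbered arrays, 2.04, 2.16 and 2.05 on the numbered ones, and 0.865 and 0.873 on the unsorted and feeder arrays. Both ratios separated the sets with no overlap, and the exact two-sided permutation p was 0.1, the smallest that 2 against 3 arrays can give. The apparent difference of Actb between the sets depended on where it was read, at 0.70 for the 3' probe set, 2.36 for the middle one and 2.97 for the 5' one. For Gapdh the same 3 readings were -0.83, -0.12 and 1.22, so its sign changed along the transcript. The 5' difference exceeded the 3' one by 2.28 for Actb and 2.05 for Gapdh on the log2 scale. The part of this in the gene differences was not tested, and it cannot be told apart from the set because every unnumbered array had the higher ratio.

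**Figure D4:**
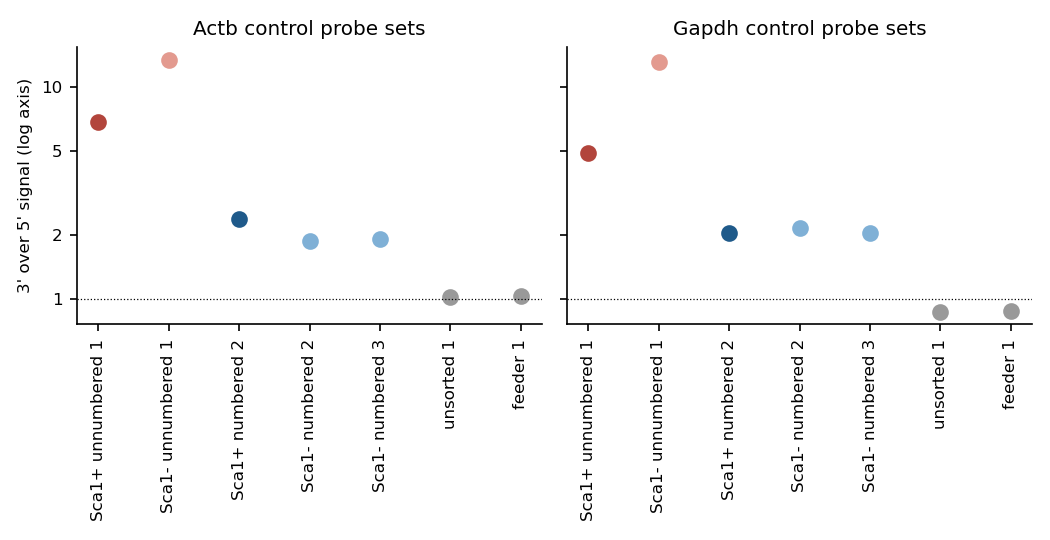
Ratio of the 3' to the 5' control probe set (log axis) of Actb and Gapdh on each of the 7 arrays, 1 point per array, with unnumbered arrays in red, numbered arrays in blue and the unsorted and feeder arrays in grey. The unnumbered arrays lie at 4.86 to 13.5, the numbered ones at 1.87 to 2.37 and the others near 1.

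Probe sets of one gene often disagreed on the size of the difference. Their positions along the transcripts were not used here, so this spread is not a reading of the 3' to 5' ratio. Among 3088 genes with at least 2 probe sets above the minimum, the difference between the sets varied by a median of 0.90 across the probe sets of a gene, and its sign varied for 1345 (43.6%). Among 54 stromal genes the median range was 0.99, the sign varied for 8 (14.8%) and the range was over 2 for 9. Besides those of Col1a1 and Sparc given above, the other probe sets of Bgn gave 4.72 and 4.52, that of Serpinh1 5.48, that of Col1a2 4.48 and that of Col3a1 3.18. Every probe set of these 6 genes that passed the minimum was thus higher on the numbered arrays, while the size differed by up to 3.78 between probe sets of Col1a1. For Bmp1, the second probe set gave -0.23 against 3.35.

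**Figure D5:**
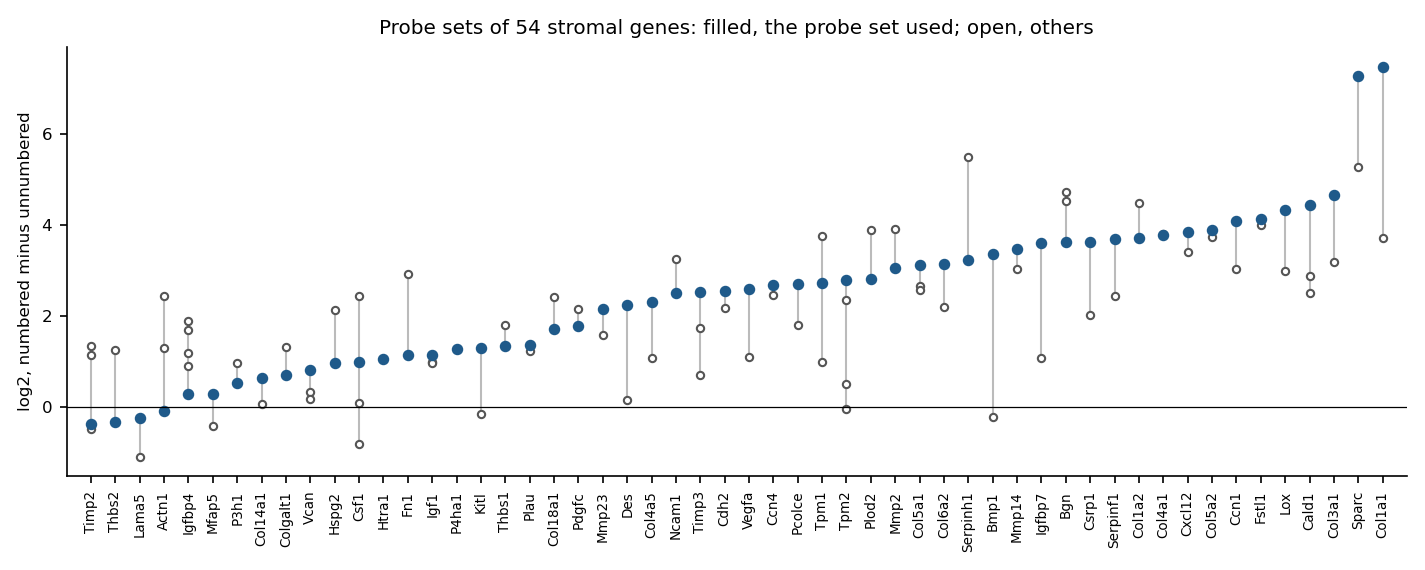
Log2 difference, numbered minus unnumbered, of each probe set of 54 stromal genes with at least 2 probe sets above the minimum, ordered by the probe set used (filled); open points are the other probe sets and grey lines join those of a gene. The sign varies for 8 genes, and the probe sets of Col1a1 lie at 7.47 and 3.69.

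Promoter sequence was read for members that rose together. The RefSeq promoter table (GRCm38.p6) held 49 of the 74 stromal genes that rose, and not Col1a1. The motif CCAAT, in either orientation, lay within the 250 bases before the start of 18 of these 49 (36.7%), against 37.5% of 27025 genes with a promoter in the table. TATAAA, in either orientation, lay in 8 (16.3%) against 14.3%. Both shares were close to those of all genes. For Col1a2 and Cald1, which represent the collagen and the contractile list and were chosen because the motif lies near their starts, the 150 bases before the start are shown 5′ to 3′ with CCAAT or its reverse complement in capitals. They lie on the plus strand at chr6:4505468-4505617 and chr6:34598354-34598503.
Col1a2: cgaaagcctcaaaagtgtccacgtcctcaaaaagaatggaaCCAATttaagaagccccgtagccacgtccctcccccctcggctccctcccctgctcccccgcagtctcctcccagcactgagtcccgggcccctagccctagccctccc
Cald1: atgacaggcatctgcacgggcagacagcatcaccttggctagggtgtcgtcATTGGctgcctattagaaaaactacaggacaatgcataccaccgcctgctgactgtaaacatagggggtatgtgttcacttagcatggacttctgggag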

How the data were processed

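The authors deposited 1 signal intensity per probe set, on a linear scale with a trimmed mean near 250 per array, in 2 tables; GCOS was used for the 3 numbered arrays per the submitters' processing notes, and for the others the sources used here name no software. Scaling brought the 2% trimmed mean of every array to 500, a floor of 64 was applied, and values were then put on the log2 scale. Of 22690 probe sets, 20380 were paired with 1 gene, which gave 12393 genes, each read by its probe set of highest mean. Testing covered the 8593 genes that exceeded 100 on 2 or more of 5 sorted arrays, by limma 3.58.1 under R 4.3.3 (linear fit, then eBayes with trend; terms set and fraction; 2 residual degrees of freedom) and Benjamini-Hochberg adjustment at 0.05. No 2 arrays held identical values; the Sca1- numbered arrays differed by a median of 0.20. On data simulated from these genes, 0 of 50 changes of 2-fold, 17 of 4-fold, 33 of 8-fold and 33 of 16-fold were recovered, and 3 of 8393 unchanged genes were called. The simulation left most of the 8593 genes unchanged and held no difference between fractions, so these rates need not hold for the arrays. Named genes are the 4 markers, the 15 highest and 15 lowest non-overlapping calls, up to 6 members per list by smallest p and any stromal member. The arrays, lists and tests were chosen with earlier results of these data known. Alternatives were other scalings, floors, filters, probe set rules, no trend, a 2-fold minimum, no fraction term, the Sca1- arrays alone and leaving out each array. Figures were drawn with matplotlib 3.10.9.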

Additional observations from a re-analysis of the deposited data

Results flagged for a closer look

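Some values went one way between the Sca1+ arrays and the other way between both numbered Sca1- arrays and the unnumbered Sca1- array they share. For list medians the difference between the fractions was not tested. The median of G2 and M phase genes was -0.44 on Sca1+ numbered 2 against 0.063 and 0.24 on Sca1- numbered 2 and 3, and that of S phase genes -0.37 against 0.37 and 0.40. The median of macrophage genes was -0.34 against 0.24 and 0.26, and that of respiratory chain genes -0.42 against 0.037 and 0.067. The 5 hepatoblast genes tested had 1.71 against -0.77 and -1.05.

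Single genes named above did the same, and none passed limma's test of the difference between the fractions, whose smallest adjusted p was 0.0981. Among stromal genes the difference in Sca1+ minus that in Sca1- was 3.07 for Acta2, 1.98 for Actn1, 2.36 for Timp2, 4.08 for Thbs2, 4.88 for Inhba, 2.66 for Zeb1, 1.52 for Fap and 1.02 for Col5a3, and -3.41 for Vcan. It was 2.74 for Cdh5 and 3.15 for Alb. Both genes read below the background controls on both numbered Sca1- arrays, as did Cdh5 on both unnumbered arrays. Those signals carry no size, so the differences of Cdh5 and Alb in Sca1- depend on the floor. At the probe sets used, Sca1- unnumbered 1 had, for Acta2, Actn1, Timp2, Thbs2, Inhba and Zeb1, a higher signal than both numbered Sca1- arrays, while Sca1+ unnumbered 1 had a lower one than Sca1+ numbered 2. Other probe sets read Sca1- unnumbered 1 lower than both, at 264 against 843 and 853 and at 444 against 702 and 658 for Actn1, at 53.0 against 109 and 95.4 for Thbs2, and at 1501 against 2259 and 1922 and at 170 against 411 and 257 for Timp2.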

How the results depend on the processing

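No paired analysis was possible because the replicate number is itself the contrast and the groups compared share fewer than 2 numbers. The direction of Col1a1, Sparc, Dcn and Ptprc held under every alternative run, and Col1a1 stayed past the threshold in all of them. Without filter Sparc (7.26), Dcn (4.12) and Ptprc (-1.04) were lost, as were Dcn (3.54) and Ptprc (-1.04) with the floor doubled, and Ptprc with quantile normalization (-0.66), no trend (-1.04) and no fraction term (-0.96). Leaving out single arrays gave -1.14 to -0.96 for Ptprc. Genes higher and lower numbered 293 and 219 with the floor doubled, 37 and 62 without filter, 445 and 148 without the fraction term, 143 and 53 with a 2-fold minimum and 1780 and 1216 in the Sca1- arrays alone; median scaling gave 538 higher. Leaving out single arrays gave 407 to 1793 higher and 281 to 1211 lower. Stromal genes higher numbered 20 with the floor doubled, 3 without filter, 44 without the fraction term and 24 with a 2-fold minimum. Granulocyte genes lower numbered 1, 1, 0 and 1 under the same 4 settings and 7 without trend, and leukocyte genes lower 2, 0, 0 and 0 and 5 without trend. Leaving out single arrays gave 2 to 10 leukocyte genes lower. Immediate early genes higher numbered 3 without filter and 4 with a 2-fold minimum. Genes whose set effect differed between the fractions numbered 1888 and 1103 with the floor at 16 and doubled and 1834 without filter, against 0. The causes were not tested. Of 136 stromal list medians under alternatives, 0 had another sign, against 44 of 459 over all lists. In filtered runs members low on the unnumbered arrays entered through the numbered ones, so this count adds no support. Without filter the medians were 1.23 for matrix glycoproteins, 0.98 for contractile genes, 1.08 for secreted factors and 0.16 for stromal receptors and transcription factors. With the filter they were 2.11, 1.75, 1.78 and 1.66. Without it, collagens (3.01) and collagen processing (1.37) kept theirs, and basement membrane and protease genes gave 1.71 and 1.64. With 5 arrays precision is limited, and signals below the background controls carry no size.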

Other observations

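A control probe set for the B1 repeat, a short interspersed element found in many mouse transcripts, also separated the sets. Its signal was 968 and 2114 on the unnumbered arrays, 20506, 18951 and 16438 on the numbered ones, 6557 on the unsorted and 10258 on the feeder array. The control for the B2 repeat did not separate them, with 33207 and 75699 on the unnumbered arrays and 35126, 39220 and 37086 on the numbered ones. The hybridization control cre, read at its 3' probe set, was 48794 and 111873 on the unnumbered arrays, 49122, 52986 and 45272 on the numbered ones, 13560 on the unsorted and 14830 on the feeder array.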
